A study of Mus musculus with 2 samples.

Results

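The genes described here are 50 mouse genes for protein secretion and folding in the endoplasmic reticulum (ER), out of 20923 protein-coding genes with a known strand. The members were given by name, and each was assigned the TCF12 peaks whose summit lies between 10 kb upstream of its 5' end and its 3' end on the mm10 build. A summit within 1 kb of the 5' end is called a promoter summit, and the rest are called other summits. TCF12 is a basic helix-loop-helix transcription factor of the E protein family, which binds DNA at E-boxes (CANNTG). Its binding was mapped by chromatin immunoprecipitation and sequencing in CH12.LX, an immortalised line from a B-cell lymphoma of mouse strain B10.H-2aH-4bp/Wts, in 1 group of 2 biological replicates of that line. The line was neither treated nor genetically altered according to the labels, and there is no second condition, so no test between conditions was possible.

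Secreted and membrane proteins enter the ER while they are being made. The signal recognition particle (SRP) brings the ribosome to its receptor, the Sec61 channel passes the chain through the membrane, signal peptidase cuts off the signal peptide and oligosaccharyltransferase attaches sugars to asparagines. Chaperones, disulfide isomerases and prolyl isomerases then fold the chain, and chains that fail to fold are sent back to the cytosol by ER-associated degradation (ERAD). When unfolded chains build up, the sensors ATF6, IRE1 (encoded by Ern1) and PERK start the unfolded protein response, in which many of these genes are induced through the ER stress element. The B lineage is known for this machinery, since plasma cells secrete antibody in bulk.

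TCF12 peaks lay at the promoters of most of these genes. The authors' optimal list holds the peaks that passed a threshold on the irreproducible discovery rate (IDR), a measure of how well the ranks of peaks repeat. In this list 46 of 50 members (92%, Wilson 95% interval 81.2 to 96.8) had a summit in the window, against 57.2% of all protein-coding genes. A promoter summit was present at 42 of 50 (84%, 71.5 to 91.7), against 40.7% of all genes. Other summits were present at 22 of 50 (44%, 31.2 to 57.7), against 35.8% of all genes, so here the share of all genes lies inside the members' interval. The members are of about the usual size, with a median span of 14.9 kb against 17.4 kb over all genes. No test was run on these shares, because the members were chosen with results of these data known, and the intervals cover counting error only.

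The starts of the members are also richer in CpG than those of most genes. Among 42 members found in the RefSeq promoter table (GRCm38.p6, 300 bases around each start), the median GC content was 63.3% and the median ratio of observed to expected CpG was 0.836, against 56.3% and 0.586 over 17274 genes. By a GC content of at least 50% and a ratio of at least 0.6, 38 of the 42 members had a CpG-rich start. Of those 38, 31 (81.6%, Wilson 95% interval 66.6 to 90.8) had a promoter summit, against 67% of 8003 genes with a CpG-rich start, a share that lies just inside the members' interval. Expression was not measured in these files. Of the 4 members without a CpG-rich start, Sec61g, Sec62 and Edem2 had a promoter summit and Fkbp11 had none.

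**Figure D1:**
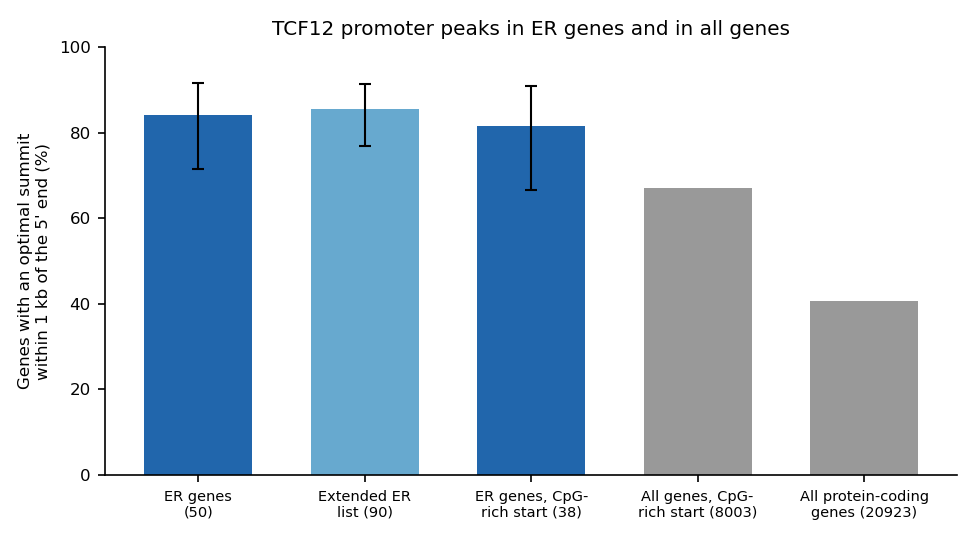
Percent of genes with an optimal TCF12 summit within 1 kb of the 5' end (vertical axis, from 0), for the 50 ER genes, the extended ER list of 90 genes, the ER genes and all genes with a CpG-rich start, and all protein-coding genes. Bars are shares, and the error bars on the 3 bars of ER genes are Wilson 95% intervals. The ER genes stand at 84% against 40.7% of all genes, and those with a CpG-rich start at 81.6% against 67% of all such genes.

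Summits were spread unevenly over the members. The 131 distinct summits comprised 69 promoter and 62 other summits. Promoter summits alone were found at 24 members, both kinds at 18, other summits alone at 4 (Rpn1, Edem1, Edem3 and Spcs2) and none at 4 (Hspa5, Srp54a, Rpn2 and Fkbp11). At 21 members there were 2 or more promoter summits. Some close summits, promoter and other ones alike, share a peak of the replicate lists, so summit counts are not counts of separate sites. The split by kind and the number of genes with 2 or more promoter summits were not counted over all genes.

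The strongest promoter peaks of the members had a higher median signal than those of all genes. Signal is the authors' caller's value for each peak, in units with no stated scaling, and read depth is unknown. Over the 42 members the median signal of the strongest promoter peak was 67.5, with quartiles of 50.2 and 91.5, against 54.8 over the 8511 genes with a promoter summit. The range ran from 26.4 at Sec63 to 266 at Srp68, and 29 of the 42 lay above the median of all genes. All 62 other summits, weak ones included, had a median of 30.1 and a maximum of 138. This median is not comparable with 67.5, which is over only the strongest promoter peak of each member. Of the 62, 6 lay within 1 kb of another gene's 5' end, the highest of all among them. Promoter summits sat close to the start: the median distance of the strongest was 75 bp (88 bp over all genes), 24 lay within 100 bp and 33 within 250 bp, with 19 upstream and 23 downstream of the 5' end.

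**Figure D2:**
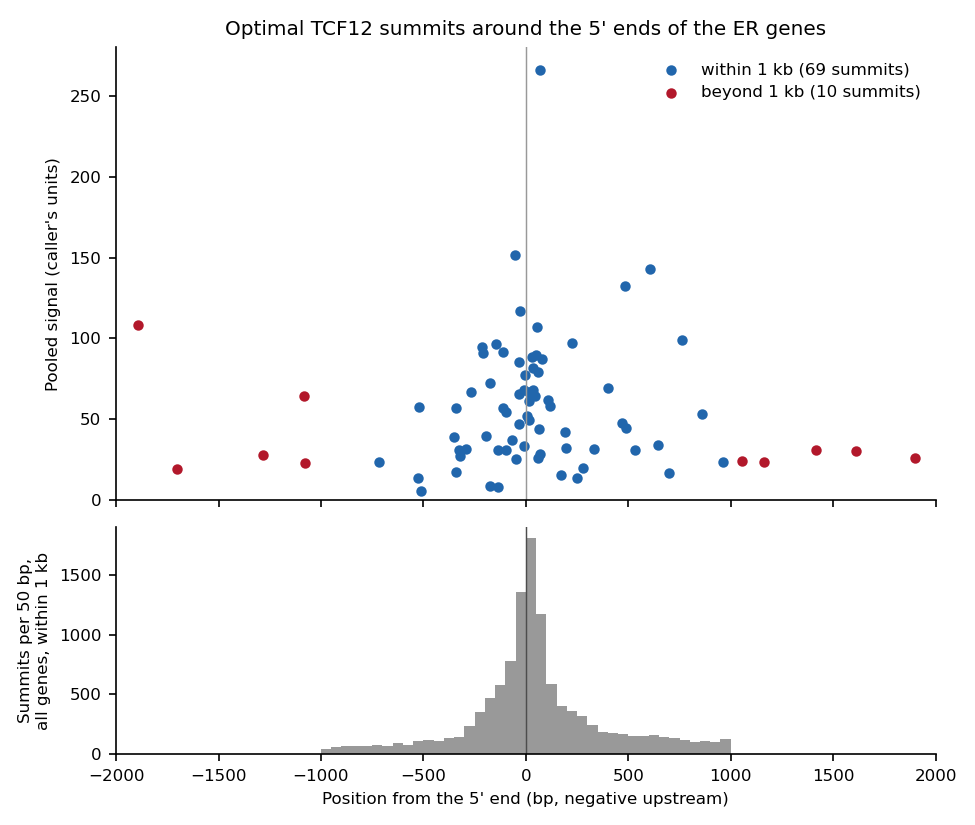
Upper panel, pooled signal (caller's units) of each optimal summit of the ER genes against its position from the 5' end (bp, negative upstream). Blue points are the 69 promoter summits and red points are other summits within 2 kb. Lower panel, number of summits per 50 bp over all protein-coding genes, within 1 kb. Summits of the members gather within 250 bp of the 5' end, as do those of all genes.

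Nearly all of these peaks overlapped a peak of both replicate lists, whose signals differed in scale. Of the 131 summits, 128 overlapped a peak of both relaxed replicate lists and 3 lacked 1 of them. Over all optimal peaks 34805 of 35836 overlapped both. Such overlap was largely set in advance, since the optimal list was selected by IDR and each relaxed list holds 300000 peaks. Replicate 1 had the higher signal at 112 of 128 (87.5%), with a median ratio to replicate 2 of 1.65. Over all optimal peaks the values were 85.7% and 1.66. Among the strongest promoter peaks replicate 1 was higher at 37 of 42.

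**Figure D3:**
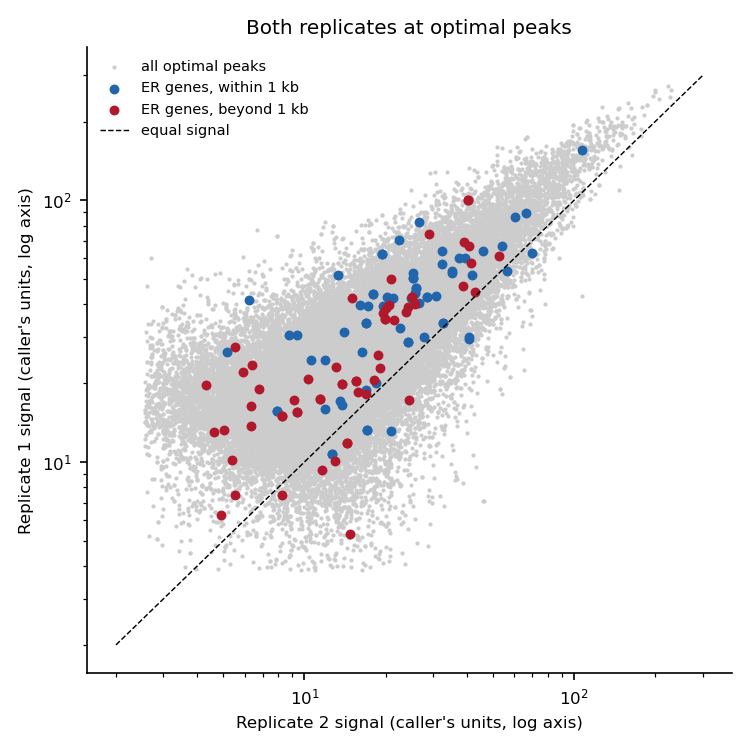
Signal in replicate 1 against replicate 2 (caller's units, log axes) at optimal peaks that overlap a peak in both relaxed replicate lists. Grey points are all such peaks, blue and red points the promoter and other peaks of the ER genes, and the dashed line marks equal signal. Most points of the members lie above the line, as do most grey points, and the highest is Srp68 at 156 and 107.

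Targeting to the ER starts with the SRP and its receptor, where 6 of 7 genes had a promoter summit, with a median signal of 60.0. Srp68, which encodes a protein that binds the SRP RNA together with SRP72, held the strongest promoter peak of all the members. Its signal was 266 pooled, 156 in replicate 1 and 107 in replicate 2, at 67 bp downstream of the 5' end (chromosome 11, 116274016 to 116274289, minus-strand gene). Srp19, needed to load SRP54 onto the RNA, followed with 152 pooled, 89.8 in replicate 1 and 66.3 in replicate 2, 53 bp upstream. These 2 peaks were higher than any other in the group in both replicates. The other 4 were lower, at 61.7 for Srp14, 58.4 for Srp72, 54.5 for the receptor gene Srpr and 31.1 for Srp9. Srp9 was higher in replicate 2 (20.9) than in replicate 1 (13.1). Srp14 and Srp9 encode the pair of proteins that pause elongation.

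Srp54a, which encodes the GTPase that reads the signal peptide, had no summit in its window in the optimal list. Within 1 kb of its 5' end only the relaxed list of replicate 2 held a summit, with a signal of 8.33 at -236 bp, and the nearest pooled relaxed summit lay 3384 bp away. Srp54a has near-identical copies, Srp54b and Srp54c, and neither of these had a summit in its window. Reads that map equally well to several copies may be dropped or split, and how the authors treated them was not given in the sources used here, so the absence of a peak is uncertain at these genes.

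The translocon was the most uniform large group: 8 of 8 genes had a promoter summit, none had another summit, and the median signal was 76.9. Sec62, a partner of the channel for short chains that enter after translation, was strongest at 133 pooled, with 63.0 in replicate 1 and 70.01 in replicate 2, 483 bp downstream of the 5' end. For the channel itself, Sec61g had 97.3 (64.0 and 46.1), Sec61a1, the pore subunit, had 91.7 (51.8 and 41.8, 113 bp upstream), and Sec61b had 52.4 (39.7 and 16.1). The channel genes thus kept the same order in both replicates. Ssr1, Ssr2 and Ssr3 encode the translocon-associated protein complex. Their signals were 68.4 (29.6 in replicate 1 and 40.6 in replicate 2), 85.5 (57.3 and 32.5) and 57.0 (32.5 and 22.7). Sec63, the J-domain partner that recruits BiP to the channel, had the lowest pooled signal of the translocon at 26.4 (13.3 and 17.1). Sec62, Ssr1 and Sec63 were higher in replicate 2, against the general scale of the lists.

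In signal peptidase, Spcs3 had a promoter peak of 44.9 (26.2 and 16.3), 489 bp downstream, and Spcs1 of 32.6. The replicate 1 peak with the nearest summit to that Spcs3 peak had 5.06, and no conservative peak overlapped it. The conservative list held the other Spcs3 promoter peak, 39.6 (30.5 and 8.74) at 194 bp upstream. Spcs2 had no promoter peak by the rule, but this depends on the gene model. Its strongest peak, 107 pooled, 69.5 in replicate 1 and 39.1 in replicate 2, lay 11457 bp inside the annotated span and 0 bp from the start in the RefSeq promoter table. Xrra1 has its 5' end 335 bp from that summit. Counting RefSeq starts as well raised the members with a promoter summit to 88%, a count not made over all genes.

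Oligosaccharyltransferase had 3 of 5 genes with a promoter summit in the optimal list: Ddost (64.5), Stt3a (49.5) and Stt3b (31.8). Stt3b, a catalytic subunit like Stt3a, rested mostly on replicate 1, with 26.2 against 5.16 in replicate 2, and it was the member lost at an IDR of 0.01 or less, with a score of 828 against the limit of 830. Derl3, at 831, lay just inside. The ribophorin genes Rpn1 and Rpn2 lacked an optimal promoter summit, yet both have a peak in the authors' conservative list. Rpn1 had 47.5 there at 18 bp downstream (21.9 and 27.5 for the strongest promoter peak of each replicate), and Rpn2 had 60.8 at 211 bp downstream (48.4 and 17.9). Pooled peaks of about this signal seldom lack an optimal peak: of 8833 pooled relaxed peaks with a signal from 40 to 70, 98.7% overlap one. The share of conservative peaks missing from the optimal list was not counted. The only optimal summit of Rpn1 lay 9313 bp upstream, with 98.5 pooled, 57.7 in replicate 1 and 41.4 in replicate 2.

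All 4 disulfide isomerase genes, whose products form and reshuffle disulfide bonds, had a promoter summit, with a median of 86.1. Pdia3, which works with the lectin chaperones, had 107 pooled, 82.4 in replicate 1 and 26.5 in replicate 2. P4hb, protein disulfide isomerase itself, had 94.6 (60.2 and 37.3) at 215 bp upstream. Pdia6 had 77.6 (52.7 and 25.3) at 2 bp upstream, and Pdia4 had 67.1 (43.0 and 30.7). Replicate 1 was higher at each of the 4, and most so at Pdia3. The strongest summit in the window of P4hb, 138 pooled with 100.01 and 40.6, lay 8375 bp upstream and only 4 bp from the 5' end of Arhgdia.

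The lectin chaperones hold glycoproteins while they fold. Canx, the membrane-bound calnexin, had 90.9 pooled, 53.9 in replicate 1 and 35.3 in replicate 2, at 208 bp upstream. A second Canx promoter peak, 51 bp downstream, was nearly level at 90.0 pooled, with 53.9 in replicate 1 and 56.5 in replicate 2. Calr, the gene of calreticulin, the soluble relative of calnexin, had 79.1 (50.4 and 25.3), at 61 bp downstream.

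Among the HSP70 and HSP90 chaperones and their co-chaperones 5 of 6 genes had a promoter summit. Hsp90b1, the ER HSP90 also known as GRP94, was strongest at 117 pooled, 66.9 in replicate 1 and 53.9 in replicate 2, only 29 bp upstream. Sdf2l1, whose product is a partner of DNAJB11, had 81.5 (62.4 and 19.4). The J-domain genes, whose products drive the ATPase of BiP, had 72.7 at Dnajc3 (46.4 and 26.0), 65.7 at Dnajb9 (42.6 and 28.5) and 57.1 at Dnajb11. The co-chaperone genes all lay below Hsp90b1 in pooled signal.

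Hspa5, which encodes BiP, the main HSP70 of the ER lumen and the standard marker of the unfolded protein response, had no such peak. No mm10 list held a summit within 1 kb of its 5' end (chromosome 2, span 34772090 to 34776529, plus strand), relaxed lists of 300000 peaks each included. The nearest pooled relaxed summit lay 14072 bp away, in a stretch of 29.965 kb without one. The peak lists do not show whether reads could be aligned and kept in that stretch, so lack of binding and lack of usable reads cannot be told apart. As far or farther were 3043 genes (14.5%), and 218 (2.72%) of the genes with a CpG-rich start, to which Hspa5 belongs. The 250 bases before its start are shown because the promoter without a peak carries the same element as several members with one. They are from RefSeq, GRCm38.p6, chr2:34771840-34772089, plus strand, 5' to 3', with the CCAAT and CCACG of the ER stress element in capitals.
Hspa5: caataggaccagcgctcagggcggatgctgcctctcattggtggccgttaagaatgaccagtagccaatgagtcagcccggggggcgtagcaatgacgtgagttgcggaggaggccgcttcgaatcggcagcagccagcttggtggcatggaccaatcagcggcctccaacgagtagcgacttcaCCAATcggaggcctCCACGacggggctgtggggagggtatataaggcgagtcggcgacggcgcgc

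The ER stress element, CCAAT and CCACG with 9 bases between them, is the site through which ATF6 and NF-Y act. It was searched on both strands of the RefSeq promoters. It was found in 9 of 42 members (Calr, Canx, Creld2, Derl3, Dnajc3, Hsp90b1, Hspa5, Pdia6 and Syvn1) and in 29 of all 17274 genes (0.168%). Since many genes of this list are textbook targets of the response, the count describes the list. Of the 9, 8 had a promoter summit and Hspa5 had none. Of the 29 genes, 12 (41.4%) had one. The element was wholly inside an optimal promoter peak at Calr, Dnajc3 and Pdia6. The elements of members with a peak are shown with 10 bases on either side, in GRCm38.p6, 5' to 3' on the strand of the gene, with both fixed parts in capitals, so that they and the varying gap can be compared. Those written CGTGG and ATTGG are in reverse orientation. Calr lies at chr8:84847065-84847103 (minus), Canx at chr11:50325790-50325828 (minus), Creld2 at chr15:88819510-88819548 (plus), Derl3 at chr10:75893232-75893270 (plus), Dnajc3 at chr14:118937817-118937855 (plus), Pdia6 at chr12:17266481-17266519 (plus) and Syvn1 at chr19:6046522-6046560 (plus). The 2 elements of Hsp90b1 lie at chr10:86705628-86705666 and chr10:86705523-86705561 (minus).
Calr: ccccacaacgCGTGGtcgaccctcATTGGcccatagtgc
Canx: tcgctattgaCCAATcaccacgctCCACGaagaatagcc
Creld2: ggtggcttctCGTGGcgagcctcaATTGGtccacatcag
Derl3: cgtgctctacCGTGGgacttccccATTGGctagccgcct
Dnajc3: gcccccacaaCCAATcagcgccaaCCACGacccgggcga
Hsp90b1 distal: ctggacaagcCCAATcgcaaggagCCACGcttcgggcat
Hsp90b1 proximal: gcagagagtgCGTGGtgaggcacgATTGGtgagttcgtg
Pdia6: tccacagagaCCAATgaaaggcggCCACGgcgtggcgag
Syvn1: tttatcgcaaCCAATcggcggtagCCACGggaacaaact

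The centres of the elements lay between 35 bp (Syvn1) and 203 bp (Hsp90b1) upstream of the start. At Pdia6 the element was 87 bp from the summit, and at Calr 15 bp from the weaker of its 2 promoter summits (signal 30.9). At Canx it lay 72 bp from the nearest summit but wholly inside neither of the 2 promoter peaks. ER stress element II, ATTGG and CCACG with 1 base between, was found in Herpud1 and Dnajb11 and in 11 of all genes (0.0637%). The Herpud1 element, 47 bp upstream, lay inside its strongest peak. Of the separate motifs, CCAAT occurred in 34 of 42 members against 42.7% of all promoters, and GGGCGG in 33 of 42 against 49.8%, while any CANNTG occurred in 23 of 42 against 72.1%. A match is a run of letters and not a site shown to be bound.

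**Figure D4:**
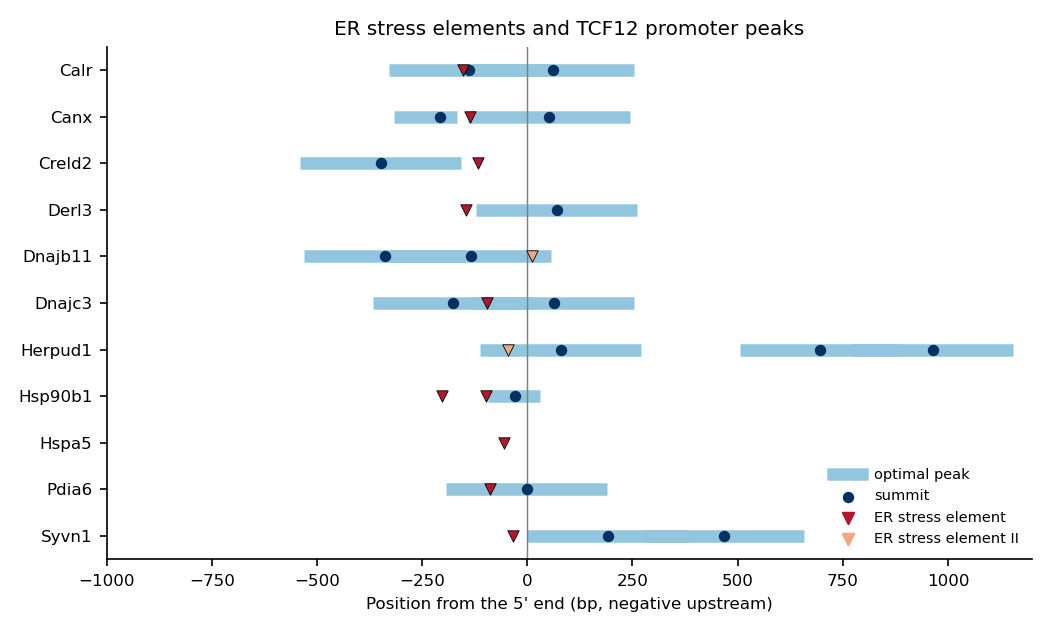
Positions from the 5' end (bp, negative upstream) of the ER stress elements (triangles, at their centres) and of the optimal TCF12 promoter peaks (bars) with their summits (dots) in the 11 members that hold an element. Hspa5 has an element 56 bp upstream and no peak, and at Calr, Dnajc3, Pdia6, Herpud1 and Dnajb11 an element lies wholly inside a peak.

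Of the prolyl isomerases, which turn peptide bonds before proline, Fkbp2 had 96.4 pooled, 64.3 in replicate 1 and 32.5 in replicate 2, 147 bp upstream. Fkbp11 had no optimal summit in its window, and 22.6 in the conservative list at 580 bp downstream (12.7 and 10.8 for the strongest promoter peak of each replicate). The stress-induced lumenal proteins MANF and CRELD2 had promoter summits of 66.7 at Manf (51.9 and 13.3) and 39.3 at Creld2 (30.5 and 9.40). The Creld2 summit lay 21 bp from the 5' end of Alg12, a mannosyltransferase gene of N-glycan synthesis.

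In ERAD 7 of 9 genes had a promoter summit. Derl2, a derlin of the export channel, was strongest at 143 pooled, 86.3 in replicate 1 and 60.3 in replicate 2. That summit lay 606 bp downstream of its own 5' end and 333 bp from that of Mis12, but 68 bp from the Derl2 start in the RefSeq promoter table, and a weaker one of 62.0 lay 106 bp downstream. Sel1l, the adaptor of the ubiquitin ligase, had 88.7 (52.6 and 35.2) and Herpud1, which organises the ligase complex, had 87.6 (70.7 and 22.4). The ligase gene Syvn1 (47.6), the mannosidase-like gene Edem2 (47.1), Derl1 (33.3) and Derl3 (28.7) were lower.

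Syvn1, Derl1 and Derl3 had their strongest pooled peak inside the gene. For Syvn1 it was 96.3 pooled, 74.6 in replicate 1 and 28.9 in replicate 2, at 2319 bp. For Derl1 it was 62.4 (37.3 and 23.9) at 5440 bp, and for Derl3 43.1 (17.3 and 24.4) at 2495 bp. The order does not hold for Derl3 in replicate 1, where the peaks at 1414 bp (23.5) and 9986 bp upstream (20.6) were higher. Nor does it hold for Derl1 in replicate 2, where the promoter peak 8 bp upstream had 32.6. In replicate 1 the strongest peak overlapping that promoter peak had 33.8, and the one with the nearest summit 6.14. Derl1 had 8 summits in its window, 6 of them over 1 kb from the 5' end.

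Edem1, whose product picks out misfolded glycoproteins, had 7 summits and none within 1 kb of its annotated 5' end. The strongest was 105 pooled, 67.1 in replicate 1 and 40.7 in replicate 2, at 11988 bp from the 5' end of the span. Its span begins upstream of the RefSeq start, and a summit of 46.2 (38.7 and 20.1) lay 1 bp from that start. Edem3 had a peak of 24.8 at 47633 bp, seen in replicate 1 (24.2) and in no overlapping peak of replicate 2. It also had 22.8 at 1078 bp upstream, just beyond the 1 kb limit, and 25.4 at 133 bp downstream in the conservative list. Just inside the limit lay a Herpud1 summit of 23.5 at 964 bp.

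Both stress sensors among the members had a promoter summit and several others. Atf6 had 98.9 pooled, 60.2 in replicate 1 and 39.4 in replicate 2, at 763 bp, and a weaker one of 37.4 at 67 bp upstream. Another 5 summits lay further off, 85.0 at 3696 bp among them. The Atf6 promoter positions may depend on the gene model. In the mm9 list and annotation the strongest Atf6 peak (mm9 signal 110) lay 0.055 kb upstream of the 5' end. The weaker mm9 promoter peak of Atf6 (56.4) lay 0.863 kb upstream. Which Atf6 peak is nearer to the start thus differed between the 2 annotations. Ern1, the gene of IRE1, had the most summits of any member, 12 over a window with a gene span from 106397620 to 106487796 on chromosome 11. Not all of the 12 are separate sites, since some close pairs share their replicate peaks. Those at 22564 and 22364 bp, for example, both had 20.4 in replicate 1 and 15.6 in replicate 2. The Ern1 promoter peak was 68.0 (29.99 and 40.8) at 9 bp upstream, and the strongest Ern1 peak was 72.9 (50.2 and 21.0) at 3771 bp upstream. In replicate 2 the order of these peaks was reversed.

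**Figure D5:**
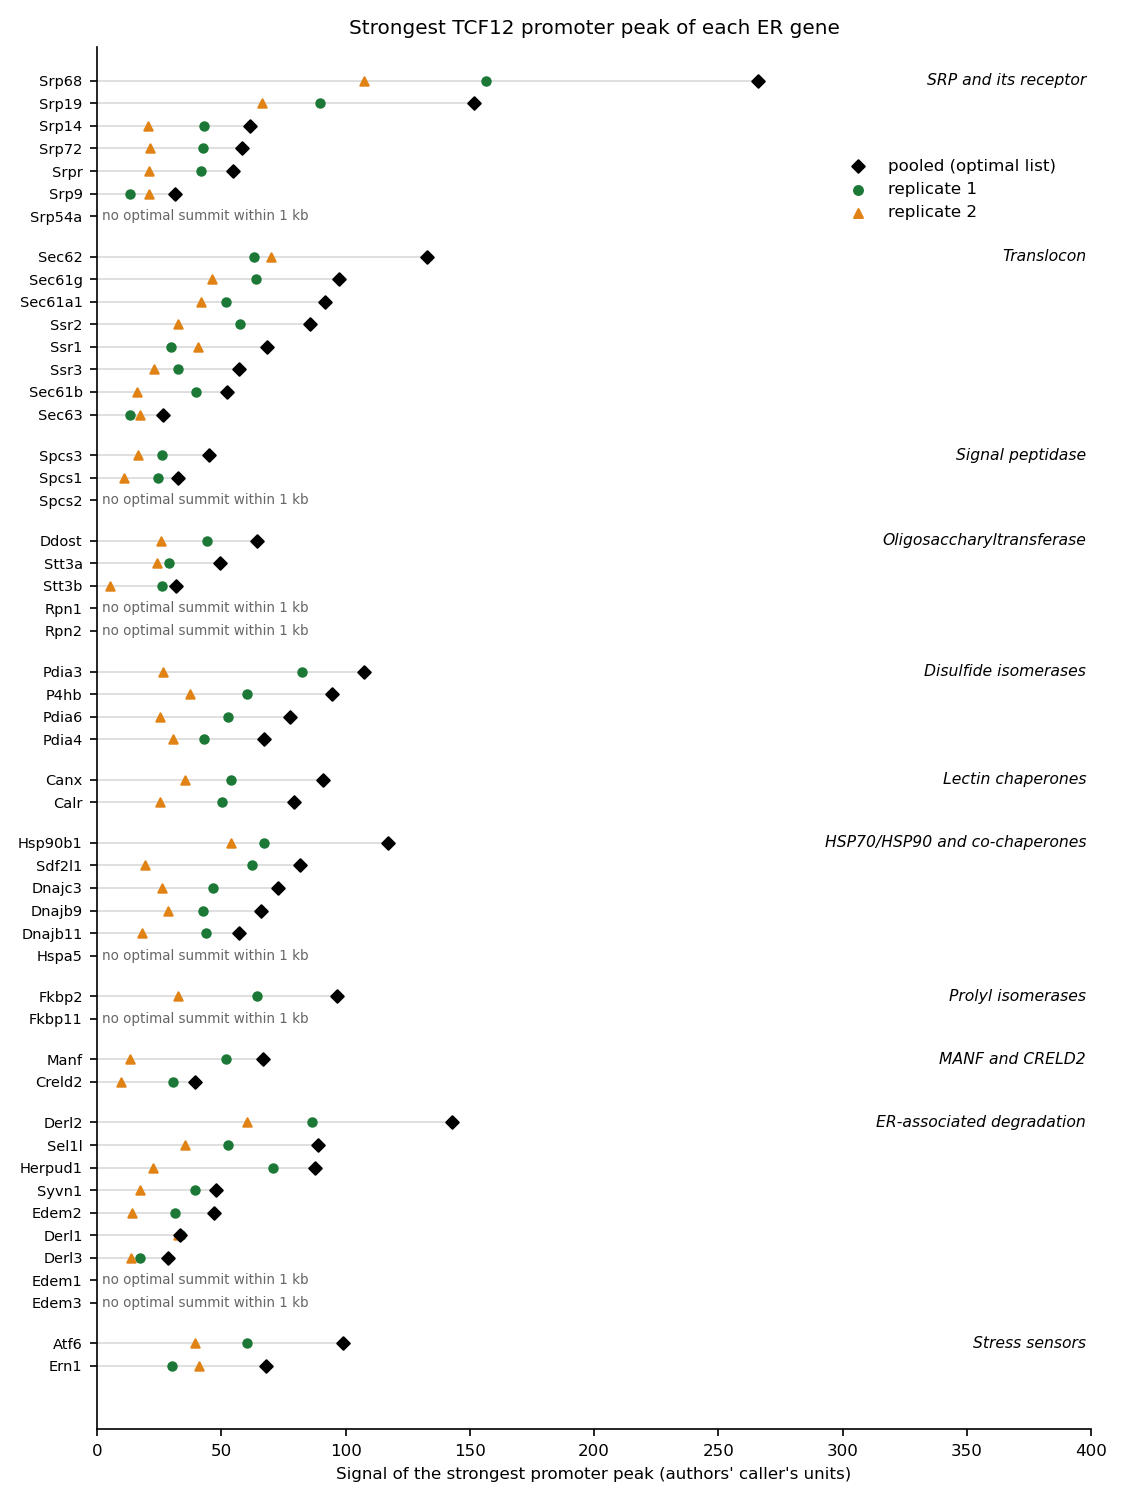
Signal of the strongest promoter peak (caller's units) of each ER gene, by role, pooled (black diamonds, optimal list) and in replicate 1 (green circles) and replicate 2 (orange triangles). Genes with no optimal summit within 1 kb of the annotated 5' end are marked. Srp68 stands highest at 266, and the replicate values lie below the pooled ones at every gene except Derl1.

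Some promoter summits are shared with a neighbouring gene. A gene on the opposite strand began within 1 kb at 10 of 50 members (20%), against 10.7% of all genes: Hsp90b1, Derl2, Srp54a, Spcs1, Creld2, Dnajb11, Pdia3, Rpn2, Sec61b and Srpr. At 4 members (Derl2, Creld2, Dnajb11 and Srpr) the strongest promoter summit was nearer to the 5' end of another gene by the annotated spans. For Derl2 this turns with the gene model, since the summit lay 68 bp from its start in the RefSeq promoter table. Which of the neighbours a peak belongs to cannot be told apart from these data. Counting a promoter summit only for the gene with the nearest 5' end left 80% of the members with one. This was not counted over all genes.

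Few of the promoter peaks of the members held the main E-boxes at their summit, whereas peaks elsewhere often did. These counts come from the authors' mm9 list, because the genome used here is NCBIM37, with a window of 50 bp to either side of the summit on both strands. That list holds 23572 peaks on the autosomes and X, against 35836 in the optimal list. Certain members with a strong promoter peak on mm10, such as Hsp90b1 and Sec61a1, had none in it. CAGCTG or CACCTG was found in 3 of 51 promoter peaks of the members (5.88%, Wilson 95% interval 2.02 to 15.9), against 10.8% of flanking windows 300 bp away. Over all 8085 promoter peaks the share was 14.4%, inside the members' interval, with 11.7% in the flanks. Of 32 member peaks at no promoter, 14 (43.8%, 28.2 to 60.7) held one, against 10.9% of their flanks, and over all 15487 such peaks 39.6% did, against 12.4%. The E-box share was thus lower at the members' promoter peaks than at their other peaks, as it was over all genes. The intervals treat peaks as independent, although the 32 peaks come from 17 members, and the difference was not tested.

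The windows below show E-boxes at summits away from promoters, taken only from windows that hold one. They belong to members whose strongest pooled mm10 peak lies inside the gene or upstream of it. Of the other such members, Rpn1 and Derl3 held no main E-box in their mm9 windows outside promoters. On mm9 the strongest Ern1 peak was its promoter peak (89.7), not the upstream peak shown. Beside these windows stand the 1 promoter window between genes that held an E-box (Srpr) and a strong promoter window without one (P4hb). All windows shown are mm9, plus strand, 5' to 3', with the main E-boxes in capitals (CACCTG on the minus strand appears as CAGGTG). For P4hb the capitals mark ACTTCCGG, the reverse of the ETS core CCGGAAGT, and CCGCCC, the reverse of GGGCGG. Edem1 is intronic at chr6:108786003-108786103 (mm9 signal 116), Syvn1 intronic at chr19:6048846-6048946 (112), Derl1 intronic at chr15:57718483-57718583 (70.9), Ern1 upstream between genes at chr11:106352833-106352933 (69.9), Srpr at chr9:35007556-35007656 (58.2) and P4hb at chr11:120434720-120434820 (156).
Edem1: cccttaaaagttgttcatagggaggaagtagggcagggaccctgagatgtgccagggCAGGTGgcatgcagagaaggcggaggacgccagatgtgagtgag
Syvn1: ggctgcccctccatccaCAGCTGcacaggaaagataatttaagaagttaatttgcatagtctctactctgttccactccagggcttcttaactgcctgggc
Derl1: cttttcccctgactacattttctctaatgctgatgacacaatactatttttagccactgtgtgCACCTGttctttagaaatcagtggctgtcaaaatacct
Ern1: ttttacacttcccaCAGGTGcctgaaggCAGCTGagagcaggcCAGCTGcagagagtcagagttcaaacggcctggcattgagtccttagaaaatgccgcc
Srpr: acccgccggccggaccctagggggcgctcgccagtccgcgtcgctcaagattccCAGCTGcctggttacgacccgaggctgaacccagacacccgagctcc
P4hb: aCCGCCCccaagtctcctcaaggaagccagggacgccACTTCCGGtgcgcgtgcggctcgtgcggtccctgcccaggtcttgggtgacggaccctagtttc

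The Ern1 window upstream of the gene held 3 E-boxes, and 9 of the 17 members with a peak outside promoters had an E-box in at least 1 of them (Creld2, Derl1, Dnajc3, Edem1, Edem3, Ern1, Hsp90b1, P4hb and Syvn1). The promoter peaks with an E-box were those of Ddost, Sdf2l1 and Srpr. In promoter peaks of the members GGGCGG was at the summit in 37.3% (25.3 to 51.0), against 33.3% of all promoter peaks, and CCGGAAGT in 3.92% (1.08 to 13.2), against 6.86%. Both shares over all promoter peaks lie inside the members' intervals.

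The rest of the ER machinery gave a similar share. In an extended list of 90 further ER genes, 77 (85.6%, 76.8 to 91.4) had a promoter summit, against 40.7% of all genes. A summit in the window was present at 87 (96.7%), against 57.2%. The median promoter signal was 61.9, against 54.8 over all genes with a promoter summit. The share among genes of this list with a CpG-rich start was not counted. The 5 strongest were Atf4, the transcription factor downstream of PERK, at 210 (147 in replicate 1 and 69.1 in replicate 2), Sec24a at 149, Nploc4 at 141, Sar1b at 132 and Faf2 at 129. Sec24a and Sar1b encode parts of the coat of vesicles that leave the ER, and Nploc4 and Faf2 act with the ATPase that extracts ERAD substrates. Only Kdelr3, Srp54b and Srp54c had no optimal summit in the window.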

How the data were processed

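The authors called peaks on each replicate and on the pooled data with a control, giving relaxed lists, and thresholded these by IDR into an optimal and a conservative list on mm10, per the file descriptions deposited with the samples. A further list is on mm9. The signal of each peak is the deposited value of the authors' caller, with no stated scaling, and the score is the deposited scaled IDR score, where 830 or more stands for an IDR of at most 0.01. The aligner and peak caller were not given in the sources used here, and depth is unknown.

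Gene spans came from RefSeq (GRCm38.p6), with the strand from the RefSeq promoter table (17274 genes) or by symbol from GENCODE vM1 (3649, 8 members among them), which covered 96.7% of the 21631 protein-coding genes of the autosomes and X. The replicate signal is that of the strongest relaxed peak overlapping the optimal peak by at least 1 bp. Motifs in peaks were read on mm9 (NCBIM37), since no mm10 genome was used here, and no coordinate was converted. Assignment and motif search were tested on simulated data. Python 3.11.15, pandas 2.3.3, numpy 2.4.6, scipy 1.17.1 and matplotlib 3.10.9 were used.

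The members and lists were chosen with earlier results of these data known, so no test was run over them. Replicate values are given for the 20 strongest promoter peaks, for members whose strongest peak lies beyond 1 kb and for those near a threshold, and for some others. Alternatives were other lists, thresholds, distances, windows, gene models and each replicate alone. A check of the line's label against marker genes is not reported here.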

Additional observations from a re-analysis of the deposited data

How the results depend on the processing

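Over 52 alternatives, 41 stayed within the limit set for their kind and 11 did not: the Wilson interval for a share, a factor of 1.5 for the number of summits, and the SD of the replicate medians for the median signal. The number of summits was 120 in the conservative list and 95 at an IDR of 0.01 or less. The share of members with a promoter summit was 92% in the conservative list, against 40.9% of all genes. It was also 92% with the optimal and conservative lists together, which was not counted over all genes. Both gained Rpn1, Rpn2, Fkbp11 and Edem3. The promoter share was 90% without replicate 2 (41.5% of all genes) and 94% without replicate 1 (41.3%). The share with any summit was 94% without replicate 2 (58.1% of all genes) and 98% without replicate 1 (57.9%). With 1 replicate left out, the median promoter signal was 25.3 to 43.9, on each replicate's own scale. At an IDR of 0.01 or less 28% of members had another summit, against 28.5% of all genes. With the gene body alone, 74% of members had a summit (43.7% of all genes), 30% another summit (25.1%), and the summits numbered 81. With any CANNTG in place of the main E-boxes, 21.6% of the members' mm9 promoter peaks held a motif, against 30.4% of their flanks and 29.6% of all promoter peaks. The optimal or conservative union, the RefSeq starts, the CpG-rich background and the nearest replicate summit were chosen after seeing the data. The last changed 0 of the 20 strongest promoter peaks, but it did change some weaker ones. Replicate 1 went from 26.2 to 5.06 at Spcs3, and replicate 2 from 20.7 to 6.23 at Srpr. On mm9, 79.6% of 49 members had a promoter peak, against 35.2% of all genes. The members counted were partly different ones. Rpn1 (mm9 signal 67.8), Rpn2 (49.5), Spcs2 (125) and Edem1 (44.6) had a promoter peak there, while Hsp90b1 and Sec61a1, among others, had none. No paired analysis was possible because there is only 1 group. Depth is not given, so the weak signals at Stt3b, Fkbp11 and Edem3 have no counting interval.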
